A study of Anolis carolinensis with 142 samples.

Results

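The day-high genes of the eye are 81 of the 26479 gene IDs measured in the green anole, Anolis carolinensis, a small diurnal lizard. They were chosen from the counts themselves. Levels were expressed as CPM, the count divided by the library total and scaled to parts per 1e6. A gene had to reach a median of 2 CPM over the eye libraries and 1 CPM in both brain and liver, with an eye median under 8 times the larger of the brain and liver medians. Its mean log2(CPM + 1) had to be at least 0.4 higher at Midday than at Midnight in the eye and to differ by at most 0.15 in either direction in brain and in liver. The levels alone admitted 10715 genes, 3459 of these were flat in brain and liver, and 81 of those passed in the eye. The rule would have kept the 100 of highest t (the eye difference over its standard error, with unequal variances), so this limit removed no gene.

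RNA had been extracted from tissues of 24 adult lizards, 12 of each sex, caught in the wild in the breeding season and labelled WT. Each animal was assigned at random to 1 of 3 treatments, with 4 males and 4 females in each. Dissection took place around noon for Midday, at night in darkness with a red torch for Midnight, and during the same night hours with artificial light plus that torch for ALAN. The libraries analysed here number 24 each of eye, brain (taken with the pineal gland) and liver, 23 each of dorsal and ventral skin, and 12 each of testes and ovary. Each treatment stands for 1 part of the day, so a difference between Midday and Midnight compares 2 sampling windows and does not trace a daily curve. The labels do not say that libraries with the same number in different tissues came from the same animal.

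As background, the vertebrate eye keeps daily time locally. Retinal cells hold a circadian clock of their own, a loop of transcription factors that repress their own genes, and light resets it through photoreceptors and light-sensitive ganglion cells. Many retinal genes, among them genes of phototransduction, melatonin synthesis, metabolism and the renewal of photoreceptor membranes, are known to differ in level between day and night. The whole eye also holds pigment epithelium, cornea, lens, muscle, vessels and blood. No name could be matched to any gene ID, so no function is given to any member below.

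Total counts were 10257388 to 30952365 per library and 10826635 to 22008762 in the eye. Libraries fell into 2 counting classes by the share of even numbers among counts of 1 to 20, which was 40.5% to 44.4% in 42 libraries and 58.8% to 72.6% in 100. The classes also differed in total counts, at most 1.63e+07 in the low-share and at least 1.71e+07 in the high-share class. In the eye the totals were 10826635 to 11975124 and 20961206 to 22008762. In the eye, 7 of 8 Midday, 7 of 8 Midnight and 1 of 8 ALAN libraries were of the low-share class, so the ALAN eye libraries differ in class from both other groups. In liver and testes all ALAN libraries and no others were of that class, and class and light at night cannot be told apart there. A library was said to stand apart when its median correlation with the others of its tissue lay over 5 median absolute deviations below the median of the tissue. This held for 19 libraries, 3 of them Midday eye libraries (male 1, female 2 and female 4). Genes enriched in the eye held 4.61% to 14.5% of the counts of each eye library and at most 0.17% in a library of any other tissue, although that list was made from these same libraries.

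The differences that chose the members are small. The Midday minus Midnight difference in the eye ran from 0.401 to 0.891 on the log2(CPM + 1) scale, with a median of 0.48. The nearest genes outside the minimum had differences of 0.39993, 0.39976 and 0.397, and the nearest members had 0.4008, 0.4018 and 0.4020. There were 31 members under 0.45, and 36 genes with the same level and flatness lay between 0.35 and 0.4. The t statistic ran from 0.834 to 6.51 with a median of 2.20, reaching 3 in 17 members and staying under 2 in 31. In 21 members every Midday library exceeded the Midnight median. In 3 members the groups did not overlap, while non-overlap was found in 0.510% of the genes tested in the eye. The rule used these same libraries, so this count describes the members and supports nothing. With a minimum on the difference but no minimum on t, the set holds members whose day and night libraries are well separated and members whose libraries are mixed.

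ENSACAG00000014284, first in rank by t, lies on scaffold GL343228.1 (249327 to 282841, plus strand, 15 exon blocks, in the coordinates of the deposited table). Its Midday eye libraries ran from 11.7 to 17.3 CPM with a median of 13.4, its Midnight libraries from 7.82 to 10.6 with a median of 8.93, and its ALAN libraries from 5.43 to 12.3 with a median of 7.74. The lowest Midday library was above the highest Midnight library, and 7 of 8 ALAN libraries were below every Midday library. The edgeR log2 change from Midday to Midnight was -0.61 ± 0.14 (SE).

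ENSACAG00000005727, rank 2, is a gene of 1 exon block on chromosome 1 (121385872 to 121387065, minus strand). Its eye level was 46.4 to 72.0 CPM at Midday (median 54.2), 35.0 to 46.0 at Midnight (median 39.0) and 34.8 to 50.0 under ALAN (median 44.3). The Midday and Midnight libraries again did not overlap, though the gap between the lowest Midday and the highest Midnight library was under 1 CPM.

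ENSACAG00000000915, rank 4, is a gene of 1 exon block on chromosome 2 (31881526 to 31882914, plus strand). Eye levels were 38.4 to 59.8 CPM at Midday (median 49.1), 19.8 to 44.3 at Midnight (median 31.4) and 22.4 to 29.8 under ALAN (median 25.4). Only 2 Midnight libraries, females 1 and 2, reached the Midday range, and every ALAN library was below it. This member recurs below, because it was also lower at night in dorsal skin.

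**Figure D1:**
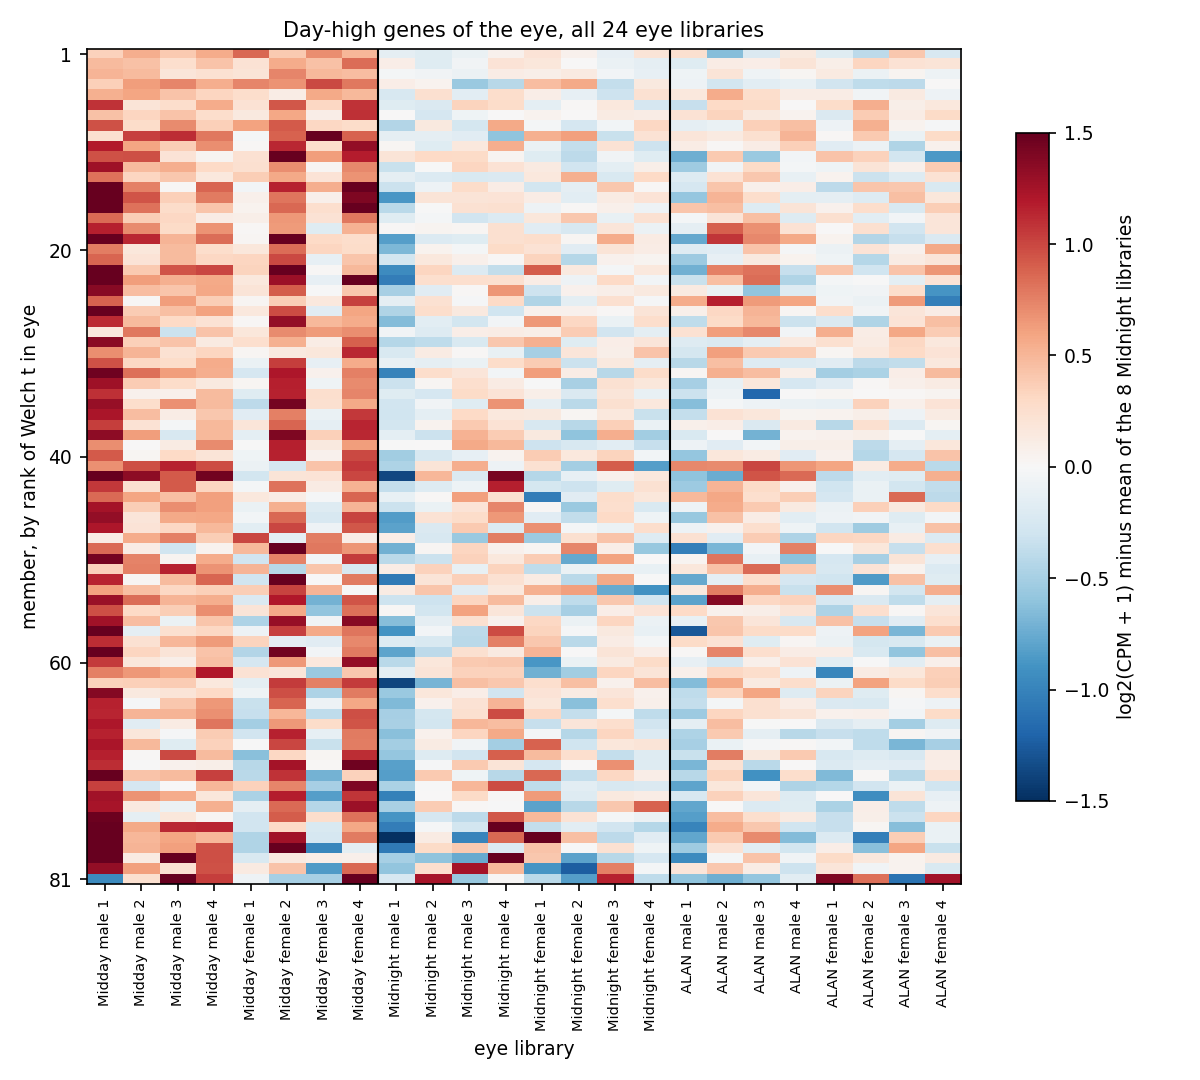
Each row is 1 of the 81 members in order of t and each column 1 of the 24 eye libraries. Colour gives log2(CPM + 1) minus the mean of the 8 Midnight libraries. The Midday columns male 1, female 2 and female 4 are the reddest over most rows, Midday females 1 and 3 are close to the Midnight columns in many rows, and the ALAN columns resemble the Midnight columns.

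Much of the height at Midday came from few libraries. Among the 16 Midday and Midnight eye libraries, Midday male 1 held the highest value of 37 members, female 2 of 16 and female 4 of 15, together 68 of 81. These are the 3 libraries that stood apart. Their mean log2(CPM + 1) exceeded the mean of the other 5 Midday libraries in 73 of 81 members. The median difference was 0.714 (log2), where the median over the 3459 genes of the same level and flatness was -0.09. The rule used the mean of these same Midday libraries, so genes raised by only a few of them could enter. The 3459 genes were not chosen on that mean, so this contrast describes the members and supports nothing. The mean of log2(CPM + 1) over the members was 5.13, 4.83 and 4.83 in these 3 libraries. It was 4.43 to 4.54 in Midday males 2 to 4, and 4.02 and 4.09 in Midday females 1 and 3. The last 2 values lie inside the Midnight range of 3.56 to 4.33.

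Without the 3 libraries, the difference remained at least 0.4 in 18 of 81 members. Its median was 0.254, with a range from -0.05 to 0.901, and 1 member was at or below 0. The members were chosen with the 3 libraries included, so some fall without them is built in. Of the first 20 members by rank 9 remained at least 0.4 (median 0.373), and of the other 61 members also 9 (median 0.207). The rule applied without them gave 33 genes, 17 of them shared with the 81. With levels scaled by TMM factors the rule gave 78 genes, 38 of them shared. Within the low-share counting class alone, 39 of 81 members kept a difference of at least 0.4, with a median of 0.398 over 7 Midday and 7 Midnight libraries. This leaves out Midday female 4, 1 of the 3, and Midnight male 1, which had the lowest member mean at Midnight (3.56). Class and these libraries cannot be told apart here. Without Midnight male 1 alone the rule gave 56 genes, all of them among the 81. For ENSACAG00000014284 and ENSACAG00000000915 the difference was larger without the 3 libraries than with them, at 0.613 against 0.537 and 0.725 against 0.681.

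**Figure D2:**
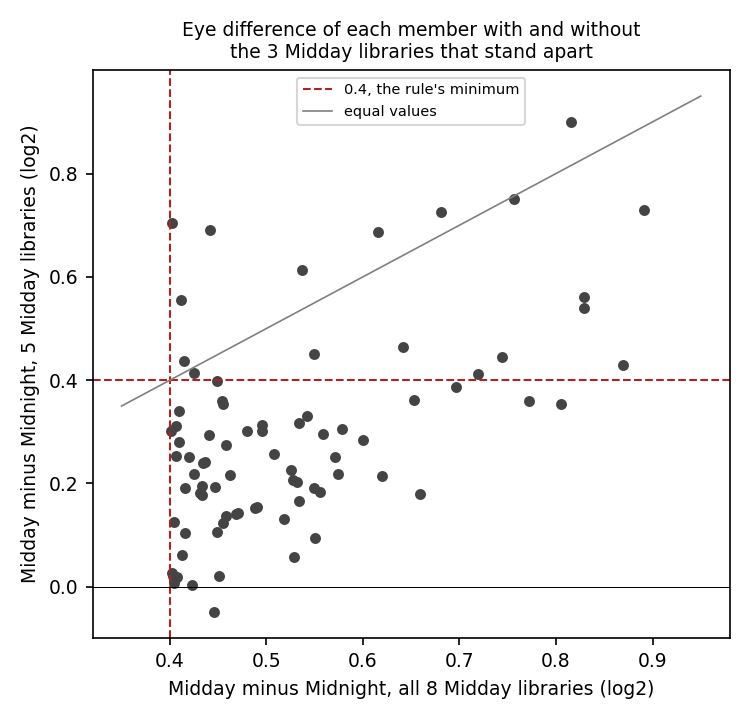
Each point is 1 of the 81 members. The x axis gives the Midday minus Midnight difference of mean log2(CPM + 1) in the eye with all 8 Midday libraries, the y axis the same without the 3 that stand apart, dashed lines mark the minimum of 0.4 and the grey line equal values. Most points lie below the grey line, and 18 remain at or above 0.4.

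The edgeR quasi-likelihood test, fitted over all 16462 genes tested in the eye, called 21 of the 81 members lower at Midnight at an adjusted p under 0.05, where 2.45% of all genes were called lower. The rule used this contrast, so the count describes the members and supports nothing. Without the 3 libraries 6 of the 21 remained called: the members of rank 1, 2, 3, 4, 9 and 51.

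Many members had their highest level in skin or liver. By mean CPM, 24 of 81 (29.6%) were highest in skin and 21 (25.9%) in liver, against 8.50% and 4.94% of the 3459 genes of the same level and flatness. A further 18 were highest in ovary, 7 in the eye, 6 in testes and 5 in brain, and for ovary and brain these shares (22.2% and 6.17%) were below the 40.4% and 21.9% of the wider set. The level in skin exceeded that in the eye in 58 members (71.6% against 29.7%) and the level in liver in 45 (55.6% against 12.8%). Both sets had an eye median under 8 times the larger of the brain and liver medians. The rule set no condition in skin or gonads, and these shares were not tested.

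The dependence on the 3 libraries is given next by the tissue of highest level. The 21 members highest in liver had a median difference of 0.555 with all libraries and 0.227 without the 3, and 18 had their highest value in 1 of the 3. For the 24 members highest in skin the medians were 0.475 and 0.195, and 22 had their highest value in 1 of the 3. The 18 members highest in ovary went from 0.444 to 0.313, with 14 highest in 1 of the 3, and they make up 10 of the first 20 members by rank. The 7 members highest in the eye went from 0.574 to 0.239. All 7 had their highest value in 1 of the 3 libraries, and none was among the first 20 by rank.

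Shares of liver-enriched and skin-enriched genes moved with the members' level, but this is not independent of how the members were chosen. The rule chose genes high in these Midday libraries, and 24 members were highest in skin and 21 in liver. The 342 liver-enriched genes held 0.292% to 0.635% of the counts of the Midday eye libraries (median 0.38%), 0.212% to 0.339% at Midnight (median 0.28%) and 0.217% to 0.321% under ALAN (median 0.279%). With the 7 members among them left out, the ranges were 0.273% to 0.570%, 0.203% to 0.307% and 0.207% to 0.296%. The 247 skin-enriched genes, of which 2 are members, held 0.143% to 0.420% at Midday, 0.139% to 0.230% at Midnight and 0.153% to 0.216% under ALAN. The 3 Midday libraries of highest member level had the 3 highest liver-enriched shares (0.635%, 0.477% and 0.405%) and the 3 highest skin-enriched shares of all 24 eye libraries. The brain-enriched and testes-enriched lists did not follow in that direction. Brain-enriched genes held 0.111%, 0.135% and 0.187% in Midday male 1, female 4 and female 2, while Midday male 4 had 0.168% and the other 4 Midday libraries ran from 0.207% to 0.223%. Testes-enriched genes held 0.530%, 0.406% and 0.453% in the same 3 libraries, and the share in female 4 was the lowest of the 24. Ovary-enriched genes held 0.171%, 0.200% and 0.186% there, against 0.154% to 0.190% in the other 5 Midday libraries. Eye-enriched genes held 10.1%, 9.13% and 4.61% there, against 5.98% to 12.6% in those 5 libraries. The part of these shares in the Midday difference was not tested, and in whole-tissue RNA fewer cells of a type and less RNA per cell cannot be told apart.

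**Figure D3:**
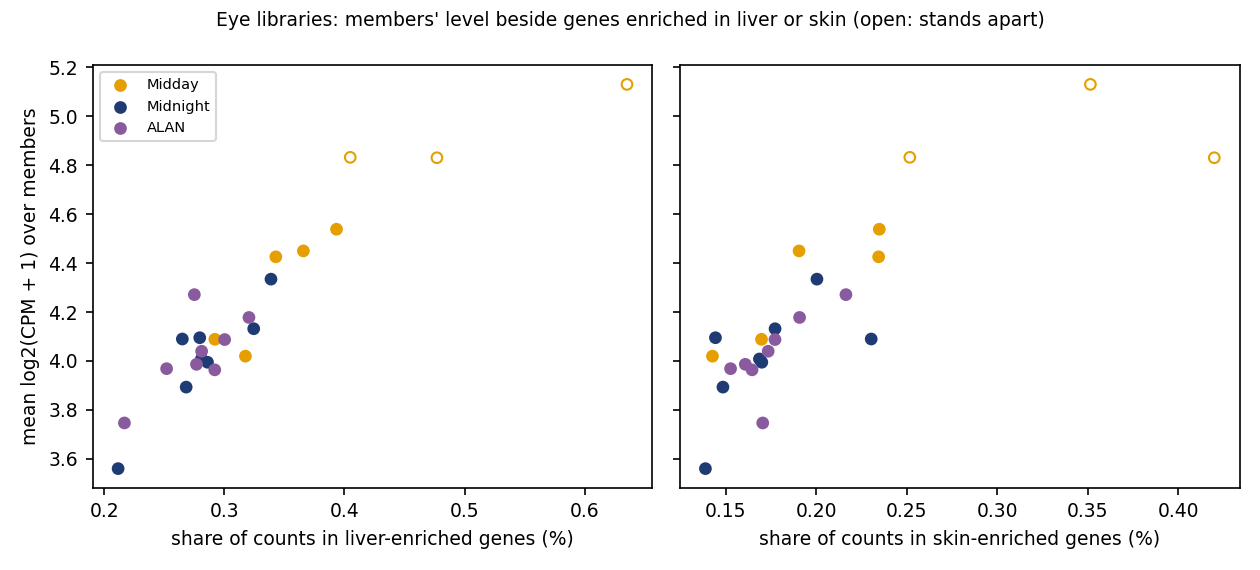
Each point is 1 eye library. The y axis gives the mean log2(CPM + 1) over the 81 members and the x axes the percent of the library's counts in liver-enriched genes (left) and skin-enriched genes (right). The 3 open Midday points, which stand apart, lie at the upper right with member means of 4.83 to 5.13, and Midnight and ALAN points share the lower left.

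Under light at night the members' level in the eye was close to that of the dark night and below that of Midday. Over the members, mean log2(CPM + 1) was 4.54 ± 0.38 in the Midday, 4.01 ± 0.22 in the Midnight and 4.03 ± 0.16 in the ALAN libraries (SD, n = 8 each). On a scale from 0% at Midnight to 100% at Midday, ALAN lay at 3.19%, with a spread between ALAN libraries of 29.95% (SD). Member by member the position lay between -68.5% and 96.4%, its median being 3.66%. The ALAN mean was above that of Midnight in 45 members and below it in 36, and 6 members were nearer to Midday. The scale rests on the same Midday and Midnight libraries that chose the members.

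Between ALAN and Midnight edgeR called 0 of 81 members, where it called 0.158% of all genes tested. The rule used these Midnight libraries and chose members low in them, so the counts here are not independent of the rule. At an unadjusted p under 0.05 there was 1 member, against 10.4% of all genes. DESeq2 also called 0 members, and 0.857% of all genes. Members' log2 changes lay between -0.45 and 0.51 with a median of 0.03, against 0.00 over all genes. The median standard error was 0.23 beside a median day difference of 0.48, so a single member is placed only roughly between the groups. Of 8 libraries each, 7 of ALAN and 1 of Midnight were of the high-share class, and a fit with the class as a term also called 0 members.

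Between ALAN and Midday 24 of 81 members were called lower under ALAN, against 4.35% of all genes, and 0 higher. This comparison shares its Midday libraries with the rule, so the members were bound to be high on that side. The count fell to 4 without the 3 libraries that stand apart, to 4 when the fit included the class, and to 4 in a fit of the Midday and ALAN libraries alone. Leaving out single libraries moved it to 47 and 48 (Midday females 1 and 3), and to between 6 and 14 (Midday male 1 and females 2 and 4, ALAN males 1, 3 and 4 and females 1, 2 and 3). ENSACAG00000000915 had the smallest p, with a log2 change of -0.91 ± 0.12 (adjusted p = 0.000135, edgeR) and remained called with each of the 24 libraries left out in turn. ENSACAG00000014284 had a change of -0.68 ± 0.14 (adjusted p = 0.0066, edgeR), also called with each library left out, but its change of -0.52 in the fit that included the class was not called.

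The skins were not used by the rule. In dorsal skin edgeR called 1 of 81 members between Midnight and Midday, where it called 0.195% of the 17975 genes tested, and in ventral skin 0 of 81, where it called 0.0570% of 17543. At an unadjusted p under 0.05 there were 12 members in dorsal skin (7 lower and 5 higher at Midnight) and 10 in ventral skin (5 lower and 5 higher), that is 14.8% and 12.3% of members against 10.9% and 11.2% of all genes. DESeq2 called 2 members in each skin, beside 1.54% and 1.04% of all genes. The members' median log2 change was -0.09 dorsally and -0.05 ventrally, and over all genes 0.00 and -0.03. The fitted change was above 0 in 34 members and below 0 in 47 in dorsal skin, and above 0 in 36 and below 0 in 45 in ventral skin.

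The member called in dorsal skin was ENSACAG00000000915. Its dorsal skin libraries ran from 57.2 to 76.8 CPM at Midday (median 72.0), 10.2 to 48.6 at Midnight (median 19.1) and 9.81 to 40.3 under ALAN (median 24.8). Every Midday library was above every Midnight and ALAN library. The log2 change from Midday to Midnight was -1.72 ± 0.24 (adjusted p = 0.000960, edgeR), and it was called with each library left out. In the fit that included the class the change was -1.80 and was not called. Of the dorsal skin libraries, 6 of 8 Midday and 0 of 8 Midnight ones were of the low-share class.

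In ventral skin the same gene had 44.9 to 61.0 CPM at Midday (7 libraries, median 51.9), 6.34 to 67.4 at Midnight (8 libraries, median 14.2) and 14.0 to 38.0 under ALAN (8 libraries, median 21.9). Midnight male 4, at 67.4 CPM, lay above every Midday library, and the other 7 Midnight libraries lay below every one of them, with the next at 26.3. The log2 change of -1.40 ± 0.36 did not pass (adjusted p = 0.171, edgeR). With a library left out it ran from -1.86 to -1.23 and was called in 1 of 23 fits (lowest adjusted p = 0.00529, edgeR). The ventral library Midnight male 4 is 1 of those that stood apart. Among fits with 1 library left out, 1 member was called in ventral skin without Midnight male 4 and 1 without Midnight female 1. Which member each fit called is not given here, and the cause of the missing call was not tested. Midnight male 4 was also the highest Midnight library in dorsal skin, at 48.6 CPM, but not in the eye, at 21.9 CPM. Without the dorsal library of that name the dorsal change was -1.99.

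ENSACAG00000000915 was at like levels by day and night in brain, with 34.1 ± 5.38 CPM at Midday and 32.8 ± 4.29 at Midnight, and in liver, with 18.6 ± 13.3 and 17.0 ± 11.2, which the rule required. In the gonads, which the rule did not use, it had 3.30 ± 0.69 and 2.59 ± 1.11 CPM in testes and 34.4 ± 6.39 and 37.6 ± 9.37 in ovary (SD, n = 4 each), and these differences did not pass the test. With all libraries it was called in dorsal skin and in the eye, and the eye was fixed by the rule. Whether its change differs between tissues was not tested.

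**Figure D4:**
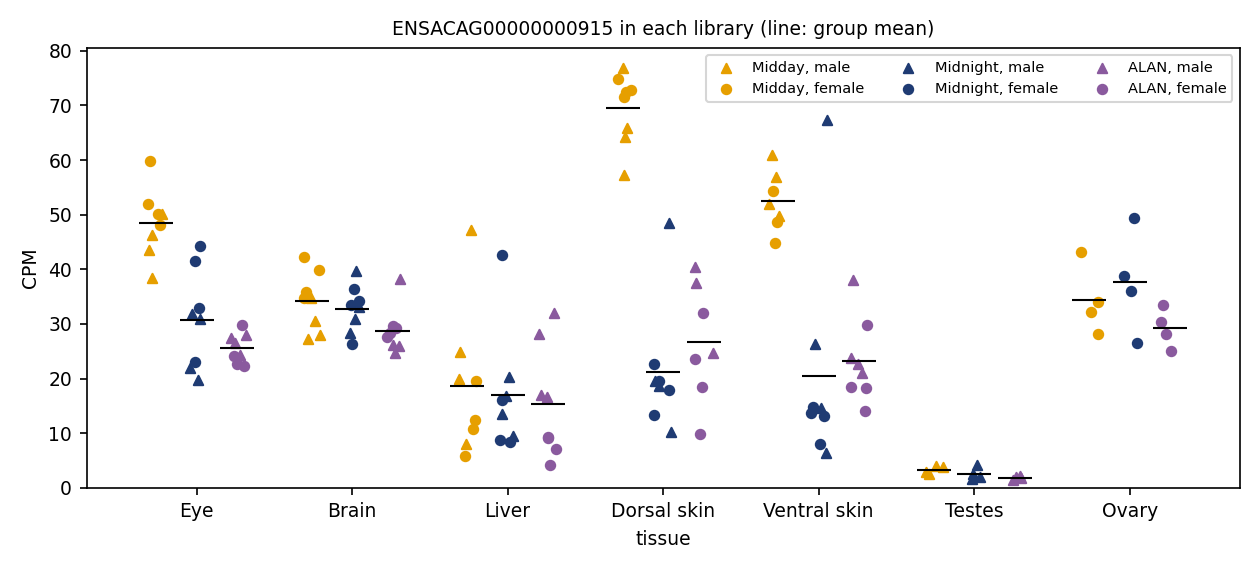
CPM of ENSACAG00000000915 on the y axis in each library of the 7 tissues, by treatment (colour) and sex (triangles male, circles female), with lines at the group means. Midday points lie above nearly all Midnight and ALAN points in the eye and both skins, and the Midnight male 4 libraries stand at 67.4 (ventral) and 48.6 CPM (dorsal).

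Another member had the sign opposite to the eye in skin. ENSACAG00000017850, rank 74, lies on scaffold GL343207.1 (3807820 to 3839577, minus strand, 15 exon blocks). In ventral skin it had 6.32 to 18.6 CPM at Midday (median 11.6), 6.32 to 155 at Midnight (median 45.5) and 5.26 to 31.8 under ALAN (median 13.6). All but 1 of the 8 Midnight libraries exceeded every Midday library, and they spread widely among themselves. The Midnight to ALAN change of -2.07 ± 0.52 was the 1 member called in that comparison (adjusted p = 0.0429, edgeR), where 1.92% of all genes were called. It was called in 8 of 23 fits with a library left out. It was not called in the fit that included the class, which marks 5 of 8 ALAN and 0 of 8 Midnight libraries of ventral skin.

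The log2 change of ENSACAG00000017850 from Midday to Midnight was 2.38 ± 0.54 in ventral skin (adjusted p = 0.132, edgeR) and 1.70 ± 0.40 in dorsal skin (adjusted p = 0.0861, edgeR), neither past the threshold. With a library left out, the ventral change was called in 1 of 23 fits (lowest adjusted p = 0.0350, edgeR) and the dorsal change in 0 of 23. In the eye this gene had 14.7 ± 7.10 CPM at Midday and 10.4 ± 4.46 at Midnight. Its eye difference was 0.423 with all libraries and 0.0035 without the 3 that stand apart, so its membership rests on those libraries.

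In dorsal skin 0 of 81 members were called between ALAN and Midnight by edgeR, where 0.0223% of all genes were, with 14 members at an unadjusted p under 0.05 (9 higher and 5 lower under ALAN, against 11.6% of all genes) and 0 called by DESeq2. ENSACAG00000000915 was lower under ALAN than at Midday there, with a log2 change of -1.32 ± 0.25 (adjusted p = 0.0394, edgeR, where 0.0389% of all genes were called lower), and was called in 6 of 23 fits with a library left out.

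In the gonads edgeR called 0 members between Midnight and Midday, of 80 tested in testes and 81 in ovary, and it called 0.00% of all genes in either. At an unadjusted p under 0.05 testes had 0 members (4.73% of all genes) and ovary 3 (3.62%), while DESeq2 called 0 in both. The members' median log2 change was 0.09 in testes and 0.03 in ovary. With 4 libraries a treatment the median standard errors were 0.35 and 0.40, so a difference of the size seen in the eye was not detectable in a typical member.

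Between ALAN and Midnight edgeR called 0 members in testes (0.430% of all genes) and 0 in ovary (0.00% of all genes). In testes 13 members had an unadjusted p under 0.05 (11 lower under ALAN and 2 higher, beside 12.5% of all genes) and DESeq2 called 5 (3.11% of all genes). Liver-enriched genes held 0.648% to 3.56% of counts in the Midnight testes and 0.184% to 0.338% in the ALAN testes. The part of these shares in the testes changes was not tested. In ovary 22 members (27.2%) had an unadjusted p under 0.05 (18 higher under ALAN and 4 lower), against 16.2% of all genes, and DESeq2 called 3 (2.35% of all genes). The median change of the members in ovary was 0.51, against 0.03 over all genes. Ovary ALAN female 2, which stood apart with a median correlation of 0.78, had a member mean of 5.22, while the other 3 ALAN ovaries ran from 4.02 to 4.33, and its skin-enriched genes held 0.76% of counts against at most 0.15% in any ovary of the other treatments. Without it the median change of the members was 0.08 and 8 members had an unadjusted p under 0.05 (4 higher, 4 lower), and the members' mean under ALAN exceeded that at Midnight by 0.07 in place of 0.33. ALAN females 1 and 4 and Midnight female 4 also stood apart, and without all such libraries, which leaves 1 ALAN ovary whose spread is taken from the others, the median was 0.13 with 8 members at that p (7 higher, 1 lower). The low-share counting class held 3 of 4 ALAN ovaries and 0 of 4 Midnight ovaries, and its part in the result was not tested. In liver and brain, chosen flat between Midday and Midnight, edgeR called 0 members between ALAN and Midnight (0.358% and 0.0872% of all genes), with 8 and 3 members at an unadjusted p under 0.05 (14.1% and 10.8% of all genes) and 0 called by DESeq2 in either.

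**Figure D5:**
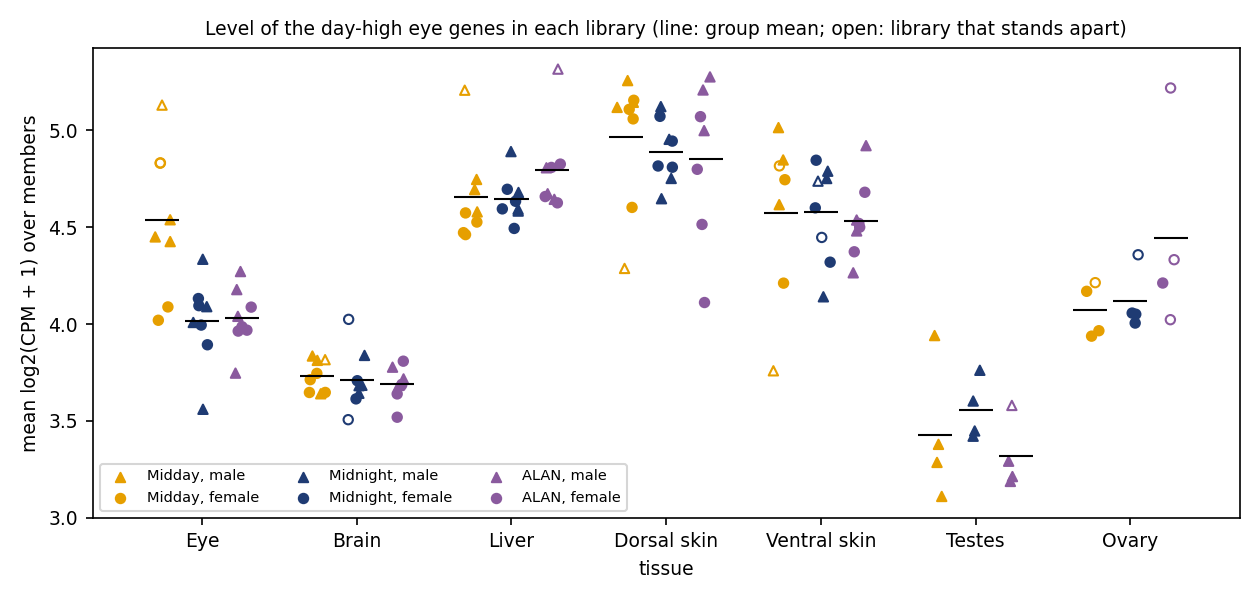
Mean log2(CPM + 1) over the 81 members in each of the 142 libraries, by tissue, treatment (colour) and sex (marker), with lines at group means and open markers for libraries that stand apart. In the eye the Midday mean (4.54) lies above the night means (4.01 and 4.03), as the rule required, and the ranges of the treatments overlap in each tissue.

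Sex was not part of the rule. In the eye edgeR called 1 of 81 members between males and females, where it called 2.73% of the genes tested. This was ENSACAG00000016904, rank 51, on scaffold GL343399.1 (563185 to 883964, plus strand), named here because it was the 1 member called. It overlaps 2 other genes, so its reads may be shared with them. The 12 male eye libraries ran from 19.3 to 47.7 CPM (median 27.2) and the 12 female ones from 15.4 to 30.1 (median 19.3), a log2 difference of 0.58 ± 0.11 with males higher (adjusted p = 0.00241, edgeR) that was called with each library left out. The ranges of the sexes overlapped.

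The day-night change of the members did not pass a test of difference between the sexes in the eye. For this interaction edgeR called 0 of 81 members and 0.00% of all genes, with 2 members at an unadjusted p under 0.05 (5.74% of all genes). For the ALAN effect by sex it again called 0 members and 0.00% of all genes, with 3 members at an unadjusted p under 0.05 (3.47% of all genes). DESeq2 called 0 members in both. The median standard error of these interactions was 0.46, close to the size of the eye difference itself.

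The liver held the most sex differences among the members. There edgeR called 20 of 81 (24.7%), where it called 13.6% of all genes, with 15 higher and 5 lower in males (7.40% and 6.17% of all genes). The rule chose members by liver level and flatness, and all genes tested were not matched to them in either. ENSACAG00000015556, on chromosome 4 (110976164 to 110995645, minus strand), had the smallest p. Its liver levels were 2.69 to 10.3 CPM in males (median 4.50) and 9.38 to 41.3 in females (median 17.8), a log2 difference of -1.78 ± 0.23 for males against females (adjusted p = 2.67e-05, edgeR). Only 1 male liver, at 10.3 CPM, reached the female range. In brain, flat for this member by the rule, the Midday libraries ran from 25.0 to 28.9 CPM. Midnight female 4, which stood apart, held 109 CPM, and the other Midnight brains ran from 18.3 to 23.4. With a library left out, the edgeR change from Midday to Midnight in brain ran from -0.37 to 0.26. It was called in 1 of 24 fits (lowest adjusted p = 0.0173, edgeR).

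In the eye ENSACAG00000015556 had 18.9 ± 3.47 CPM in males and 17.1 ± 3.21 in females (n = 12 each). The log2 difference there was 0.20 ± 0.08 for males against females, opposite in sign to liver and not called (adjusted p = 0.195, edgeR). ENSACAG00000011208, on chromosome 2 (194274961 to 194361356, minus strand), was higher in male liver, at 946 to 2873 CPM (median 1563) against 648 to 1188 in females (median 843). Its log2 difference in liver was 0.98 ± 0.19 (adjusted p = 0.00138, edgeR). In the eye it was also 0.98, with a larger error (± 0.31), and was not called (adjusted p = 0.0914, edgeR). The sign was the same, also without a call, in brain (0.43 ± 0.16), dorsal skin (0.60 ± 0.37) and ventral skin (1.13 ± 0.56). Leaving out 1 library at a time gave 0.07 to 0.72 for dorsal and 0.27 to 1.33 for ventral skin. Most of either skin difference could thus be lost with a single library. The brain value stayed between 0.34 and 0.49. The eye value ran from 0.55 to 1.08 and was called in 1 of 24 such fits (lowest adjusted p = 0.0417, edgeR). Both genes were called in liver with each of the 24 libraries left out.

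In dorsal skin edgeR called 6 members between the sexes, 4 higher and 2 lower in males, where it called 3.89% of all genes, 2.68% higher and 1.22% lower. ENSACAG00000009495, on chromosome 3 (163782777 to 163785559, minus strand), had 15.0 to 138 CPM in males (median 47.4, n = 11) and 8.34 to 31.3 in females (median 17.6, n = 12), a log2 difference of 1.42 ± 0.33 (adjusted p = 0.0141, edgeR). ENSACAG00000011948, also on chromosome 3 (123232169 to 123287846, minus strand), had 53.0 to 84.3 CPM in males (median 68.0) and 51.2 to 181 in females (median 102), a difference of -0.74 ± 0.15 (adjusted p = 0.00484, edgeR). For both genes the sexes overlapped. In ventral skin the difference was -0.23 ± 0.27 for ENSACAG00000009495 (adjusted p = 0.775, edgeR), opposite in sign to dorsal skin. For ENSACAG00000011948 it was -0.10 ± 0.21 there (adjusted p = 0.878, edgeR), and neither was called. Ventral skin and brain gave 0 called members by edgeR, where 0.205% and 2.48% of all genes were called, with 13 and 11 members at an unadjusted p under 0.05 (13.0% and 13.3% of all genes). DESeq2 called 3 members in ventral skin (2.22% of all genes) and 0 in brain.

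Position and structure are given beside the 3459 genes of the same level and flatness, with no test. The median length was 1982 bases against 1910, the median span on the genome 29077 bases against 20395 and the median number of exon blocks 11 against 9. Genes of a single block made up 7.41% against 3.35%, and 53.1% against 52.8% lay on the numbered chromosomes. Chromosome 2 held 15 members (18.5% against 12.0%) and chromosome 3 held 11 (13.6% against 7.86%), while chromosome 5 held 1 (1.23% against 7.03%). No member lay on linkage group b, which held 22 of the 3459 genes. There were 5 pairs of members with at most 3 genes between them. Another gene overlapped 18 members, 16 of them on the other strand, and whether strand was used in counting is not given in the sources used here. Overlap was judged over whole gene spans, introns included, so reads of such pairs may be shared but need not be.

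The mitochondrial genome supplied 2 members, of rank 13 and 17. ENSACAG00000028241 (11670 to 13475, plus strand) had 1041 ± 169 CPM in the Midday eyes, 773 ± 171 in the Midnight eyes and 774 ± 138 in the ALAN eyes. ENSACAG00000028228 (6940 to 7627, plus strand) had 6374 ± 1375, 4715 ± 818 and 4971 ± 782 CPM (SD, n = 8 each). In both genes the ALAN mean was nearer to Midnight than to Midday, and without the 3 libraries that stand apart their differences were 0.293 and 0.219, under the minimum. All genes of the mitochondrial genome together held 1.60% to 3.13% of counts at Midday and 1.28% to 2.33% at Midnight, with 1.61% to 2.02% under ALAN. The 3 Midday libraries that stand apart held the 3 highest Midday shares (3.13%, 2.48% and 2.22%), and the part of this in the result was not tested.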

How the data were processed

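The deposited table holds raw read counts per Ensembl gene ID for 142 libraries, with coordinates and gene length. The submitters' processing notes list STAR 2.7.11a, featureCounts, Subread, Trimmomatic and FastQC. Strand setting, genome build and annotation release, not given in the sources used here, were treated as unknown. The 26479 gene IDs in the authors' counts matched 0 of 27148 rows of a RefSeq table (assembly rAnoCar3.1), so planned gene lists and cell type markers were not used. No ID pairs with a name in the table.

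The members, lists and tests were chosen with earlier results of these data known. The rule's wording "under 8 times brain or liver" was read as the larger of both medians. Genes were tested per tissue with edgeR 4.0.16 in R 4.3.3 (TMM factors, filterByExpr by treatment and sex, a robust quasi-likelihood fit of 3 treatments with sex as covariate), with Benjamini-Hochberg adjustment over all genes tested and calls under 0.05. The sex interactions used a mean per treatment and sex. Named IDs were the first 2 by Welch t, then per comparison at most 2 called members per direction by smallest p that overlap no other gene, plus single called members. ENSACAG00000000915 in further tissues, ENSACAG00000017850 in the eye and dorsal skin and both mitochondrial members were singled out after their values were seen. Tissue-enriched lists came from these libraries (5 CPM or more, 8-fold or more over every other tissue). Alternatives were RLE size factors, no filter, DESeq2 1.42.0, the counting class, libraries that stand apart, each library left out, a replicate block, 2 treatments alone, no sex term, and the rule with other pseudocounts (0.5 and 2), scaling or reading. Scripts were tested on simulated data. Within a tissue, each library of a treatment was taken as 1 animal, since the labels give 24 animals.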

Additional observations from a re-analysis of the deposited data

Results flagged for a closer look

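A single library lay far from the rest of its group (Dixon's criterion at the 95% level) in 8 of 51 groups examined, where chance alone flags about 1 in 20. The mean log2(CPM + 1) over the members was 5.21 in liver Midday male 1 (next 4.75), 5.32 in liver ALAN male 1 (next 4.83) and 4.36 in ovary Midnight female 4 (next 4.06). All 3 libraries also stood apart by correlation. ENSACAG00000000915 had 48.6 CPM in dorsal skin Midnight male 4 (next 22.7). ENSACAG00000011208 had 2873 CPM in liver Midday male 3 (next 1572) and 1996 in liver Midnight male 4 (next 1154). ENSACAG00000009495 had 97.9 CPM in dorsal skin Midnight male 4 (next 47.4) and 138 in dorsal skin ALAN male 2 (next 49.3). ENSACAG00000011208 in liver and ENSACAG00000009495 in dorsal skin were called higher in males, and these groups mix the sexes.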

How the results depend on the processing

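In the eye, the members called lower at Midnight numbered 21. They numbered 13 with no filter on low counts, 6 without libraries that stand apart, 6 with only these 2 treatments in the fit and 36 with DESeq2. With single libraries left out they ran from 8 to 41, with 35 and 41 without Midday females 1 and 3, and 8 to 13 without Midday male 1, females 2 or 4, or Midnight males 1 or 2 and females 1 or 2. These alternatives for the contrast the rule used were added after seeing the data. The 24 members called between ALAN and Midday became 11 with no filter, 4 with the counting class in the fit, 4 without libraries that stand apart, 4 with 2 treatments alone, 45 with DESeq2 and 6 to 48 with single libraries left out.

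The rule gave 33 genes without the eye libraries that stand apart, 42 in the low-share class alone, and 42 (without Midday male 1) to 100 with single eye libraries left out. Only eye libraries were left out here, though 3 brain and 2 liver libraries also stood apart, so flatness was not tried again. With single libraries left out, the edgeR change from Midday to Midnight ran from -0.13 to 0.45 for ENSACAG00000014284 in liver. For ENSACAG00000017850 in brain it ran from -0.26 to 0.30, and neither was called. The low-share class also leaves out Midday female 4 and Midnight male 1. It gave 78 genes with TMM-scaled CPM, 38 of them shared with the 81, 87 and 69 with pseudocounts of 0.5 and 2 (71 and 61 shared), and 75, all shared, when the eye had to be under 8 times both medians. ALAN lay at 9.00% with TMM-scaled CPM, 5.77% without libraries that stand apart and -21.9% in the low-share class, where ALAN has 1 library, and -10.4% to 11.0% with single libraries left out.

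Between the sexes the eye count of 1 became 3 without libraries that stand apart, 3 with DESeq2, 0 with the reading of both medians, and 1 to 2 with single libraries left out (2 without Midnight male 1). The liver count of 20 was 12 to 20 with single libraries left out (13 and 12 without ALAN females 1 and 4). Dorsal skin gave 10 with DESeq2, ventral skin 3 with DESeq2 and 0 to 1 with single libraries left out, and brain 0 to 1.

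In dorsal skin, Midnight against Midday gave 0 with the class in the fit and 2 with DESeq2. In ventral skin it gave 1 without libraries that stand apart, 2 with DESeq2, and 0 to 1 with single libraries left out (1 without Midnight male 4 or Midnight female 1). ALAN against Midnight in ventral skin gave 0 with no filter, with the class in the fit and with 2 treatments alone, 2 with DESeq2, and 0 to 1 with single libraries left out. In testes it gave 1 with 2 treatments alone, 5 with DESeq2 and 0 to 1 with single libraries left out, and in ovary 3 with DESeq2.

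Each animal had 1 treatment, so same-numbered libraries of different treatments come from different animals. Of 24 such pairs, 5 had a correlation of deviations over 0.1, with a range from -0.452 to 0.297. These pairs cannot show whether the same number in different tissues marks the same animal. With the replicate block, 8 members were called for Midnight against Midday in the eye, 5 for ALAN against Midday in the eye and 0 for ALAN against Midnight in ventral skin, and the block moved no other member count by over 1.5 times.

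The causes of these differences were not tested. No called result reversed its direction. The position of ALAN, which has no test, also turned negative without Midnight male 1 (-10.4%) or female 2 (-0.0778%) and without ALAN male 2 (-3.35%) or male 3 (-0.821%). Of the named values, 21 fits kept the direction and lost the call, 19 of them for ENSACAG00000017850 in ventral skin, and 315 kept both. The gonads had 4 libraries a treatment.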
